A study of Mus musculus with 6 samples.

Results

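Transcripts of the renal gluconeogenesis enzymes were examined in mouse kidney at postnatal day 60. They are the 8 genes Pcx, Pck1, Pck2, Fbp1, G6pc, Slc37a4, Khk and Glud1, picked by symbol from the 24422 genes of the deposited count tables. All 8 were found in every library and all 8 passed the filter on low counts. The data are RNA sequencing of 6 kidneys, labelled as biological replicates, of which 3 were control (genotype wild type) and 3 TfR1KO;KspCre (genotype Tfr1f/f;KspCre). Both groups were of strain C57BL/6, were killed at the same age and ate an iron-sufficient diet of 220 ppm iron. In the TfR1KO;KspCre mice, exons 3 and 4 of the transferrin receptor gene TfR1 are floxed and Cre is expressed from the promoter of Ksp-cadherin, a gene of the distal nephron and collecting duct. The comparison asks how the glucose-making enzymes stood in kidneys in which this iron importer was targeted in part of the nephron.

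Gluconeogenesis makes glucose from lactate, glutamine, glycerol and other precursors. Apart from the liver, the kidney is the main organ that does so, and within the kidney the pathway lies in the proximal tubule, outside the segments where Ksp-cadherin is strongest. Pyruvate is carboxylated to oxaloacetate in mitochondria, phosphoenolpyruvate carboxykinase (PEPCK) turns oxaloacetate into phosphoenolpyruvate, the shared steps of glycolysis then run backwards, and a pair of phosphatases remove the phosphates that glycolysis would add. PEPCK has a cytosolic form, Pck1, and a mitochondrial form, Pck2, each from its own gene.

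The upstream sequences of 3 of these genes are shown as Pck1 and G6pc are the classical hormone-regulated genes of the pathway and Pck2 was the only one of the 8 to rise. Pck1 fell, and G6pc had lower values that did not pass the test described below. Each line holds the 250 bases before the RefSeq transcript start on the strand of the gene, 5′ to 3′, at chr2:173152823-173153072 for Pck1, chr11:101367466-101367715 for G6pc and chr14:55540016-55540265 for Pck2, all on the plus strand of GRCm38.p6. Capitals mark exact matches to the letters TTACGTCA (a variant of the cAMP response element), TATAAA (the TATA box) and TGATGNAA (part of the composite C/EBP-ATF element), read on both strands.
Pck1: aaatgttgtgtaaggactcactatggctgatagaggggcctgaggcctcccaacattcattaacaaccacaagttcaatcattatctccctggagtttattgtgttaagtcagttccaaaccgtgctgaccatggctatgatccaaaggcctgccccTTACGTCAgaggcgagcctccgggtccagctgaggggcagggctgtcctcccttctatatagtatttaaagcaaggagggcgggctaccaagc
G6pc: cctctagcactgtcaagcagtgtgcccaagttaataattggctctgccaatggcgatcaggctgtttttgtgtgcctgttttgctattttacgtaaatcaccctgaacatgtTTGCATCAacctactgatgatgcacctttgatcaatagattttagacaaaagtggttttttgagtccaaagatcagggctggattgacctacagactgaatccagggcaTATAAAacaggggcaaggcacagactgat
Pck2: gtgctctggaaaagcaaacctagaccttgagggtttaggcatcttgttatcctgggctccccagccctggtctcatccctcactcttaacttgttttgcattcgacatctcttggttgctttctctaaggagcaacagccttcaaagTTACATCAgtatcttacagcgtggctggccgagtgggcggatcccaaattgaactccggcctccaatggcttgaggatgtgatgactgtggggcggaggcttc

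The Pck1 sequence held TTACGTCA at bases -93 to -86 from the start, a word found in 0.447% of the 32851 RefSeq windows of this length. G6pc had TATAAA at -29 to -24, and 12.4% of windows held these letters at any position on either strand. TGATGNAA, in 3.45% of windows, was matched on the opposite strand in G6pc (-138 to -131) and in Pck2 (-103 to -96), and these matches did not overlap those to other words. Over the 11 annotated starts of the 8 genes, TATAAA was present at 2, of G6pc and Slc37a4. The full element TGACGTCA (1.55% of windows) and the HNF4 word CAAAGTCC (1.2%) were at none. These are matches of letters and not measured binding.

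Total counts ranged from 11501053 to 21001341 per library. Counts are given below as CPM, the usual depth-scaled count, here with TMM normalisation, and each mean ± SD is over 3 libraries. Tfrc, the targeted gene, had 1032 to 2856 counts among controls and 530 to 4368 among knockouts (-0.11, SE 0.62, as log2 fold change), so it did not separate the groups. Its highest level, 214 CPM against 62.0 to 168 CPM in controls, was in the library labelled knockout 1, and knockouts 2 and 3 had 86.0 and 40.6 CPM. These counts cover the whole gene and not the deleted exons alone. The library labelled knockout 1 lay between the controls and the other knockouts on the first principal component of all tested genes (9.67, against -72.6 to -53.2 for controls and 82.1 and 88.6 for knockouts 2 and 3). Sex-linked transcripts set control 2 apart, with 3.06 CPM of Xist against 760 to 1431 in the other 5 libraries and 85.3 CPM of Ddx3y against at most 0.306. Sex is not in the labels, so results are also given without each library.

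Of the 8 enzymes, 7 were lower in TfR1KO;KspCre and 1, Pck2, was higher. Pcx, Pck1, Slc37a4 and Glud1 fell and Pck2 rose (quasi-likelihood test of edgeR, Benjamini-Hochberg adjusted p under 0.05 over 15171 genes), whereas Fbp1, G6pc and Khk did not pass. Among all tested genes 17.2% were called, 6.64% lower and 10.6% higher, against 4 and 1 of the 8. In all 8 genes the 3 knockout libraries lay wholly outside the control range, below it for 7 and above it for Pck2. The same was true, below and above, of 22.2% and 23.8% of all tested genes. The median log2 fold change of the 8 was -1.68, against 0.021 for all tested genes. Their summed level was 5864 to 6861 CPM in controls and 1314 to 2744 CPM in knockouts. In whole kidney, fewer cells of a type and less RNA per cell cannot be told apart.

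Calls over the whole table depended on which libraries entered the fit, and those of the enzymes went with them. Without any 1 of the 3 controls, 0 of all genes and so 0 of the 8 were called, although 7 or 8 of them had an unadjusted p under 0.05 (edgeR), as did 4270 to 4823 of the 15518 to 15624 genes tested in these fits. The number was likewise 0 of the 8 without knockout 2 or knockout 3, where 73 of 15408 and 2 of 15439 genes were called in all, with 7 and 8 enzymes and 4604 and 4456 of all genes at an unadjusted p under 0.05 (edgeR). Without knockout 1 all 8 were called, 7 of them lower and Pck2 higher. In that fit 5332 of all 15494 genes were called in either direction, and 2544 (16.4%) were called lower. DESeq2's Wald test on all libraries also called the 8, with 4882 of 15136 genes called in either direction and 2281 (15.1%) called lower.

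**Figure D1:**
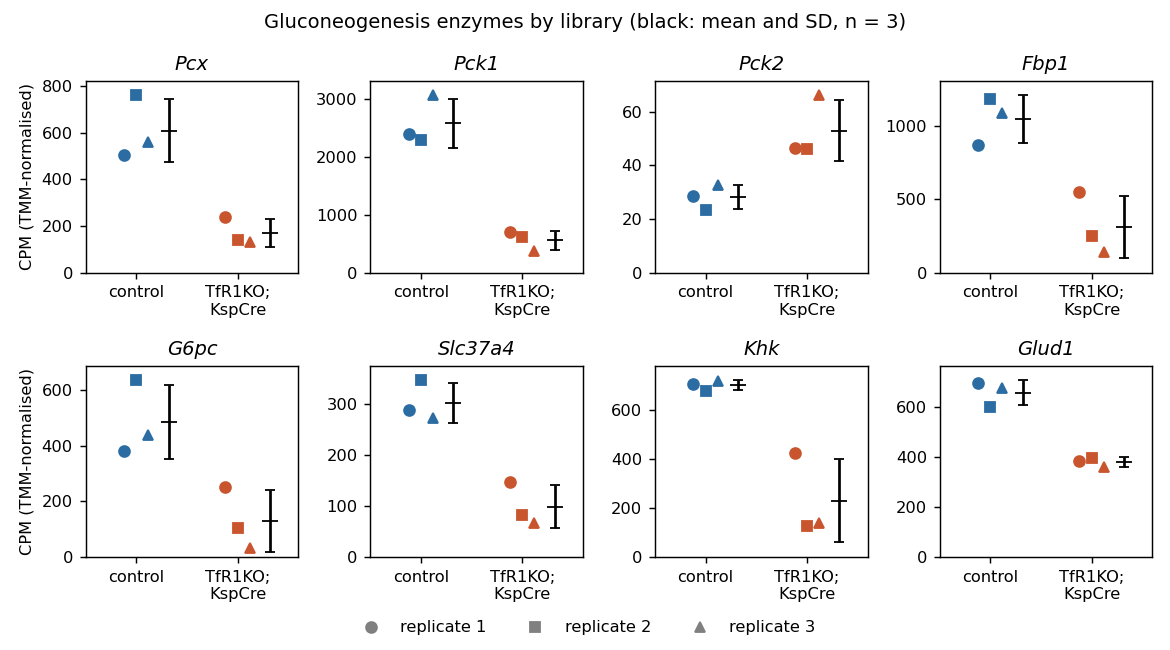
CPM of the 8 enzymes in each library. Each panel has its own linear axis from 0, symbols stand for replicates 1 to 3, and black bars give mean and SD (n = 3). All TfR1KO;KspCre points lie below all control points except for Pck2, where they lie above, and knockout 1 (circle) is the knockout nearest to the controls for Pcx, Pck1, Fbp1, G6pc, Slc37a4 and Khk.

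Pyruvate carboxylase, Pcx (ENSMUSG00000024892; chromosome 19, 4510472 to 4621752, plus strand, mm9), makes oxaloacetate from pyruvate in mitochondria and so opens the pathway for lactate and alanine. Controls 1 to 3 stood at 504, 762 and 562 CPM, and knockouts 1 to 3 at 241, 142 and 132 CPM. Controls averaged 609 ± 135 CPM and knockouts 172 ± 60.3 CPM (SD, n = 3 each). On the log2 scale the fold change was -1.83 (SE 0.31; edgeR, adjusted p 0.0278). Every knockout was below every control, and knockout 1 was the highest of the knockouts. Pcx is overlapped on the opposite strand by Lrfn4, a synaptic adhesion gene, and the strand setting of the counting is not given in the sources used here. Lrfn4 moved the other way, from 11.4 ± 2.03 to 24.0 ± 5.09 CPM (log2 fold change 1.07, SE 0.23; edgeR, adjusted p 0.0326).

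Cytosolic PEPCK, Pck1 (ENSMUSG00000027513; chromosome 2, 172978549 to 172984774, plus strand), whose upstream sequence carries TTACGTCA, is the most tightly regulated step of the pathway. Its level was 2394, 2294 and 3072 CPM in controls and 697, 618 and 378 CPM in knockouts. Controls averaged 2587 ± 423 CPM and knockouts 564 ± 166 CPM, so that knockouts held 21.8% of the control mean. It fell by 2.20 on the log2 scale (SE 0.33; edgeR, adjusted p 0.0277). Unlike Khk or G6pc, Pck1 was already low in knockout 1, at 26.9% of the control mean, against 23.9% and 14.6% in knockouts 2 and 3.

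Mitochondrial PEPCK, Pck2 (ENSMUSG00000040618; chromosome 14, 56159103 to 56168854, plus strand), makes the same product inside mitochondria. It was at 28.6, 23.4 and 32.5 CPM in controls and 46.6, 46.1 and 66.1 CPM in knockouts. The means were 28.2 ± 4.56 and 52.9 ± 11.4 CPM, a 1.88-fold higher level in knockouts, or 0.91 on the log2 scale (SE 0.20; edgeR, adjusted p 0.0345). It was the only one of the 8 that rose, and knockout 3, lowest of all libraries for Pck1, was highest for Pck2.

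Pck1 and Pck2 were then compared per length of transcript (2661 and 3400 bases). Here and below, the length is that of the longest annotated coding transcript of the gene. Which transcripts the kidneys expressed was not tested. Every 100-base word of either transcript was absent from the longest coding transcript of every other annotated gene. Noncoding genes, pseudogenes and shorter transcripts were not searched. Per kilobase, the level of Pck1 was 107, 125 and 121 times that of Pck2 in controls 1 to 3. For knockouts 1 to 3 the ratio was 19.1, 17.1 and 7.31. Pck2 thus made up 0.794% to 0.927% of the summed PEPCK level per kilobase in controls and 4.98%, 5.51% and 12.03% in knockouts. The groups did not overlap, and Pck1 was still the larger transcript pool in every library. This ratio was taken up after the values of both genes had been seen, so no test is given.

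**Figure D2:**
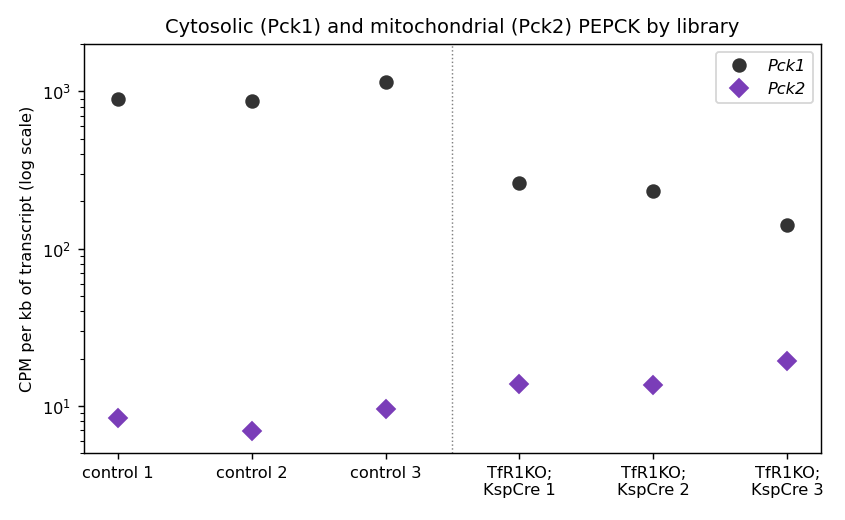
Level per kilobase of transcript (CPM per kb, log axis) of Pck1 (circles) and Pck2 (diamonds) in each library. Pck1 lies between 862 and 1155 in controls and between 142 and 262 in TfR1KO;KspCre, whereas Pck2 lies between 6.90 and 9.57 in controls and between 13.5 and 19.4 in TfR1KO;KspCre.

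Fructose bisphosphatase, Fbp1 (ENSMUSG00000069805; chromosome 13, 62966113 to 62989642, minus strand), removes the phosphate that phosphofructokinase adds in glycolysis. It was at 870, 1186 and 1091 CPM in controls and 551, 249 and 138 CPM in knockouts. The means were 1049 ± 162 and 313 ± 214 CPM, and the log2 fold change of -1.74 (SE 0.50) missed the threshold (edgeR, adjusted p 0.0532). The groups did not overlap, but knockout 1 held 52.6% of the control mean and knockout 3 held 13.2%. Without knockout 1 it passed, at -2.45 (edgeR, adjusted p 0.00397). An annotated gene on the opposite strand, Gm17367, overlaps Fbp1 and was not used here.

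The last steps release glucose in the endoplasmic reticulum. G6pc (ENSMUSG00000078650; chromosome 11, 101228875 to 101239217, plus strand) encodes the catalytic subunit of glucose-6-phosphatase. It was at 380, 635 and 438 CPM in controls and 251, 106 and 35.2 CPM in knockouts. The means were 484 ± 133 and 131 ± 110 CPM, with a log2 fold change of -1.89 (SE 0.65) that did not pass (edgeR, adjusted p 0.0805). The knockouts were spread more widely than for any other of the 8 in relative terms, from 51.8% of the control mean in knockout 1 to 7.26% in knockout 3. Without knockout 1 the log2 fold change was -2.78 (edgeR, adjusted p 0.0107).

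Slc37a4 (ENSMUSG00000032114; chromosome 9, 44205182 to 44211046, plus strand) carries glucose 6-phosphate into the endoplasmic reticulum for that enzyme. It was at 288, 347 and 272 CPM in controls and 147, 82.9 and 68.0 CPM in knockouts. Controls averaged 302 ± 39.5 CPM and knockouts 99.3 ± 42.1 CPM, and the gene fell by 1.61 on the log2 scale (SE 0.31; edgeR, adjusted p 0.0303). Per kilobase of transcript, G6pc was 1.28 to 1.77 times Slc37a4 in controls. The ratio was 1.65 and 1.24 in knockouts 1 and 2 and 0.501 in knockout 3, so the enzyme and its transporter kept a like ratio except in knockout 3.

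Khk and Glud1 bring substrate into the pathway. Ketohexokinase, Khk (ENSMUSG00000029162; chromosome 5, 31223929 to 31233619, plus strand), phosphorylates fructose. It was at 705, 678 and 718 CPM in controls and 425, 126 and 139 CPM in knockouts. The controls agreed closely (700 ± 20.9 CPM) and the knockouts did not (229.9 ± 169 CPM), since knockout 1 kept 60.7% of the control mean and knockouts 2 and 3 kept 18.0% and 19.8%. Its log2 fold change of -1.61 (SE 0.48) was not called (edgeR, adjusted p 0.0604), and was -2.41 and called without knockout 1 (edgeR, adjusted p 0.00223).

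Glutamate dehydrogenase, Glud1 (ENSMUSG00000021794; chromosome 14, 35123913 to 35158330, plus strand), frees ammonia from glutamate and yields 2-oxoglutarate, the route by which glutamine enters the pathway. It was at 694, 598 and 674 CPM in controls and 385, 397 and 358 CPM in knockouts. Controls averaged 655 ± 50.5 CPM and knockouts 380.1 ± 20.1 CPM, and the gene fell by 0.79 on the log2 scale (SE 0.18; edgeR, adjusted p 0.0348). In this fit it was the smallest change of the 8 and the most even, with knockouts at 58.8%, 60.6% and 54.6% of the control mean. Pck2 changed less than Glud1 without control 2 (0.78 against -0.86) and without knockout 3 (0.72 against -0.75). The same held with the Xist covariate described below (0.81 against -0.85). With library size in place of TMM Glud1 was at -0.52 and not called (edgeR, adjusted p 0.0774). That scaling shifted the median of all genes from 0.021 to 0.29.

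The order of the 8 by level per kilobase was Pck1 (972 ± 159 CPM per kb), Fbp1 (709 ± 110), Khk (481 ± 14.3), G6pc (201 ± 55.3), Glud1 (201 ± 15.5), Pcx (147 ± 32.5), Slc37a4 (129 ± 16.9) and Pck2 (8.29 ± 1.34) in controls. The ranges of neighbours overlapped from G6pc down to Slc37a4 and not elsewhere. In knockouts the order was Pck1 (212 ± 62.3), Fbp1 (212 ± 144), Khk (158 ± 116), Glud1 (116 ± 6.16), G6pc (54.1 ± 45.5), Slc37a4 (42.5 ± 18.0), Pcx (41.4 ± 14.5) and Pck2 (15.6 ± 3.36). Pck1, which stood apart from Fbp1 in controls, overlapped it in knockouts.

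Levels were next set against markers of the proximal tubule, the segment that holds these enzymes. All 16 markers, such as the endocytic receptor Lrp2 (megalin) and the phosphate transporter Slc34a1, were expressed, and all 16 were lower in knockouts, with 11 called and a median log2 fold change of -1.89. Their summed level was 14302 to 21930 CPM in controls and 2679 to 8062 CPM in knockouts. Relative to the control mean, their mean log2 CPM was -1.10 in knockout 1, -2.15 in knockout 2 and -2.63 in knockout 3. Each enzyme was then expressed as its log2 CPM minus the mean log2 CPM of these markers in the same library. As the markers were lower in knockouts, a gene that fell less than they did, or rose, gained on this scale.

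On this relative scale Pck2 stood at -4.53 ± 0.33 in controls and -1.67 ± 1.02 in knockouts (SD, n = 3 each), a difference of 2.86 with no overlap. The exact two-sided permutation test gave p = 0.10, the smallest that 3 against 3 allows, and 0.80 adjusted over the 8 genes. Glud1, at -0.79 as log2 fold change by itself, was 1.18 higher relative to the markers (exact permutation p = 0.20). Its knockout 1 lay within the control range. The other 6 differed by between -0.31 (G6pc) and 0.28 (Slc37a4), with overlapping groups. Pcx was at -0.11 ± 0.27 in controls and -0.0080 ± 0.33 in knockouts, a difference of 0.10 (exact permutation p = 0.70). For Pck1 the values were 1.99 ± 0.23 and 1.72 ± 0.45, a difference of -0.27 (exact permutation p = 0.60). Fbp1 was at 0.68 ± 0.11 and 0.68 ± 0.25, and Khk at 0.11 ± 0.26 and 0.23 ± 0.38. These differences were within the spread between replicates, which at 3 per group could not show a small one.

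**Figure D3:**
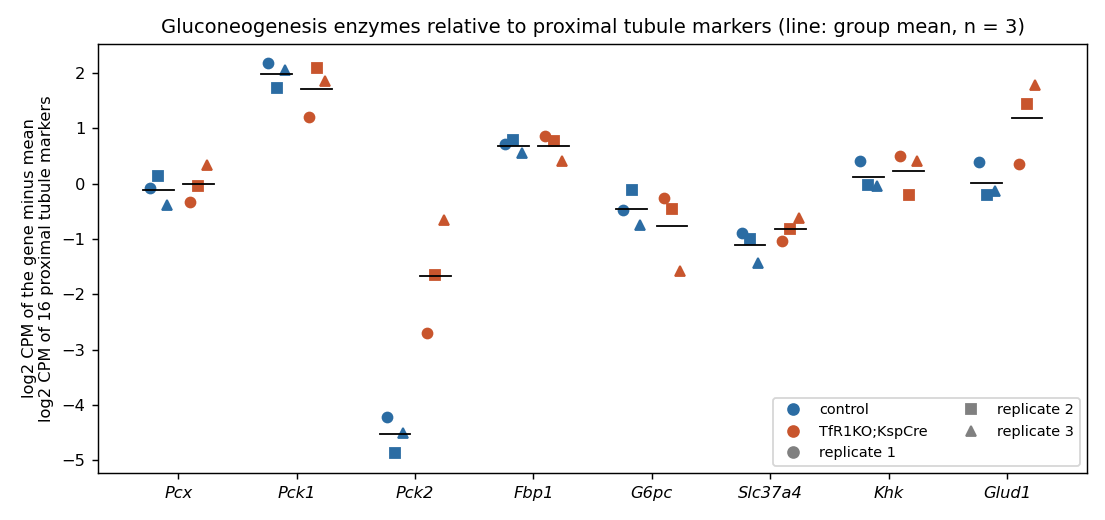
Log2 CPM of each enzyme minus the mean log2 CPM of 16 proximal tubule markers in the same library, with group means as lines (n = 3). Control and TfR1KO;KspCre points are intermixed for Pcx, Pck1, Fbp1, G6pc, Slc37a4 and Khk, whereas Pck2 rises from -4.53 to -1.67 without overlap and knockouts 2 and 3 lie above the controls for Glud1.

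Markers of other cells that hold some of these enzymes were read as well. Hepatocyte markers summed to 229 to 685 CPM in controls and 86.3 to 342 CPM in knockouts, with 0 of 8 tested called and 5 at an unadjusted p under 0.05 (edgeR). By log2 fold change 5 of these were lower and 3 higher, namely Serpina1a (1.28), Fga (0.82) and Fgb (1.55). Albumin was at 8.01, 7.64 and 74.9 CPM in controls and 6.58, 2.46 and 5.82 CPM in knockouts, and was high in control 3 alone. Apob was instead highest in control 2 (145, 511 and 203 CPM in controls). Adipocyte markers, which matter because fat also expresses Pck1 and Pcx, summed to 286 to 615 CPM in controls and 153 to 868 CPM in knockouts, and 1 of 9 was called, the thermogenic protein Ucp1, at -3.90 on the log2 scale (edgeR, adjusted p 0.0361). Adiponectin was at 40.4, 13.8 and 15.8 CPM in controls and 5.69, 42.0 and 67.4 CPM in knockouts. Of 8 leukocyte markers 6 were called higher, with sums of 157 to 168 CPM in controls and 389.6 to 1447 CPM in knockouts. Fibroblast markers summed to 309 to 562 CPM and 985 to 3802 CPM, with 4 of 6 called higher. Thick ascending limb markers, of the segment where KspCre acts, summed to 5492 to 12000 CPM in controls and 947 to 7067 CPM in knockouts, with 0 of 7 called and 2 at an unadjusted p under 0.05 (edgeR). The part of these cells in the enzyme levels was not tested.

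The rest of the pathway was described with 78 further genes, of which 75 were tested. Of these, 20 fell, 2 rose and 53 were not called, with a median log2 fold change of -0.65. The number called was 44 without knockout 1, where 5332 of all 15494 genes tested were called, and 0 without any other single library, where 0 to 73 of all genes were (edgeR). Of 7 genes for the entry of glycerol and fructose 6 fell. Among them were glycerol kinase Gk (727 ± 218 to 145 ± 102 CPM, log2 fold change -2.33, SE 0.53), glycerol phosphate dehydrogenase Gpd1 (558 ± 81.7 to 162 ± 57.3 CPM, -1.78) and triokinase Tkfc (388 ± 11.6 to 124 ± 62.5 CPM, -1.65). Tkfc follows Khk in fructose breakdown, and Khk, which was not called, was at -1.61.

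Of 5 glucose transporters 3 fell. Slc5a2, the sodium-glucose cotransporter SGLT2 of the early proximal tubule, went from 390 ± 151 to 74.8 ± 21.2 CPM (log2 fold change -2.38, SE 0.34; edgeR, adjusted p 0.0271). Slc2a2 (GLUT2), through which the glucose made by G6pc leaves the cell on the basolateral side, went from 186 ± 50.7 to 46.0 ± 21.2 CPM (-2.01, SE 0.37; edgeR, adjusted p 0.0295). Slc5a1 (SGLT1) fell by 1.19 on the log2 scale. Of 9 genes for lactate and pyruvate entry 2 fell, the lactate cotransporter Slc5a12 (678 ± 241 to 177 ± 62.7 CPM, -1.94) and the mitochondrial pyruvate carrier subunit Mpc1 (293 ± 37.7 to 112 ± 45.3 CPM, -1.39). The median of these 9 was -1.20.

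Of 14 genes of glutamine, amino acid and malate handling 3 fell and the median was -0.84. They were the dicarboxylate carrier Slc25a10 (log2 fold change -1.12, SE 0.24), the aspartate-glutamate carrier Slc25a13 (-1.20, SE 0.27) and alanine aminotransferase Gpt (-0.91, SE 0.25). None of the 6 tested genes of the reversible steps shared with glycolysis was called by edgeR, and all 6 overlapped between groups. Gapdh was at 1507 ± 181 and 1023 ± 400 CPM (-0.56, SE 0.33) and Aldoa at 1128 ± 110 and 1022 ± 365 CPM (-0.14, SE 0.30). The median of these 6 was -0.50, and 0 of them had an unadjusted p under 0.05.

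Of 12 tested enzymes that oppose gluconeogenesis, 2 rose and 1 fell, with log2 fold changes from -0.85 to 2.82 and a median of 0.16. Hexokinase 3, Hk3, a form found in myeloid cells, rose from 0.597 ± 0.423 to 4.20 ± 2.34 CPM (log2 fold change 2.82, SE 0.65; edgeR, adjusted p 0.0366). Pfkfb4, which sets the level of a phosphofructokinase activator, rose by 0.77 on the log2 scale (12.4 ± 2.48 to 21.1 ± 2.40 CPM), and pyruvate kinase Pklr, the form of liver and proximal tubule, fell by 0.85 (43.9 ± 11.1 to 24.3 ± 4.69 CPM). Of 5 tested paralogs of the 8 enzymes 0 were called (edgeR), of which 2 had an unadjusted p under 0.05. The widely expressed phosphatase G6pc3 was at 62.6 ± 2.77 and 56.6 ± 14.2 CPM (-0.15, SE 0.20), and Slc37a3 at 66.8 ± 9.60 and 50.3 ± 3.18 CPM (-0.41, SE 0.15).

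Of 17 regulators of gluconeogenic transcription 5 fell and 12 were not called (edgeR). The median log2 fold change of the 17 was -0.55, with 14 lower and 3 higher. The nuclear receptor Hnf4a went from 742 ± 117 to 246 ± 128 CPM (log2 fold change -1.59, SE 0.38; edgeR, adjusted p 0.0380). The fatty acid receptor Ppara (163 ± 37.4 to 51.4 ± 21.2 CPM, -1.66) and the parathyroid hormone receptor Pth1r (645 ± 117 to 273 ± 118 CPM, -1.24) fell as well. The coactivator Ppargc1a, named here after its values were seen, fell from 154 ± 8.30 to 75.0 ± 30.5 CPM (-1.03, SE 0.28; edgeR, adjusted p 0.0492).

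**Figure D4:**
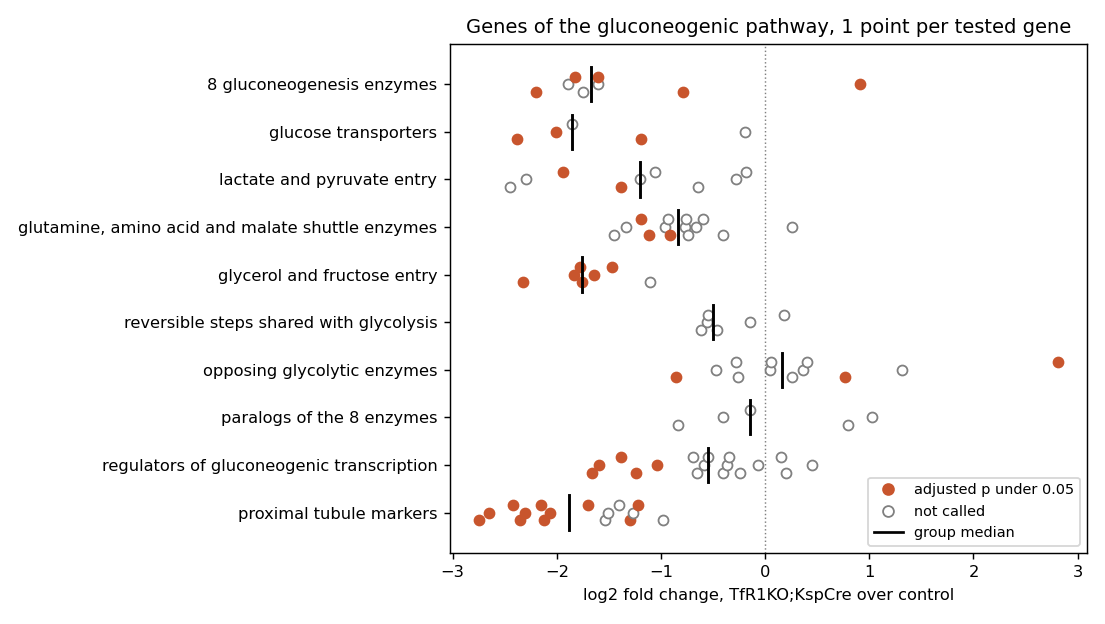
Log2 fold change of TfR1KO;KspCre over control for each tested gene of the 8 enzymes, 8 groups of other pathway genes and the proximal tubule markers. Filled points passed an adjusted p under 0.05, open points did not, and black lines are group medians, which run from -1.89 for the proximal tubule markers to 0.16 for the opposing glycolytic enzymes.

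The mean standardised log2 CPM of the 8 enzymes was 0.55 to 0.68 among controls, -0.14 for knockout 1, -0.74 for knockout 2 and -0.98 for knockout 3. The 5 genes whose profile over the 6 libraries was most like it, out of 15163 others, were Ahcyl2 (Pearson r = 0.9986), Psmg1 (0.9984), Sdhaf4 (0.9983), Cubn (0.9983) and Lrp2 (0.9981). The libraries fall into 2 groups and share their depth with the enzymes, so these values are a description. Cubn and Lrp2, the endocytic receptors cubilin and megalin, are also in the list of proximal tubule markers, and fell by 2.30 and 2.42 on the log2 scale.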

How the data were processed

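Poly-A RNA of 3 control and 3 TfR1KO;KspCre kidneys was sequenced. The authors deposited raw counts per gene for each library; per the methods and the submitters' processing notes they used CASAVA 1.8.2, Trimmomatic, TopHat2 2.0.11 on mm9, uniquely mapped reads and HTSeq. Annotation and strand setting are not given in the sources used here. Groups and replicate numbers came from sample titles.

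Genes were filtered with filterByExpr, scaled by TMM and tested with edgeR 4.0.16 (quasi-likelihood, legacy version) in R 4.3.3 over all 6 libraries with no covariate. Benjamini-Hochberg adjustment ran over the 15171 genes tested, and an adjusted p under 0.05 was a call. SE is the log2 fold change divided by the root of F. Levels relative to proximal tubule markers used log2 CPM with a prior count of 2. The alternatives included DESeq2 1.42.0 and limma-voom (limma 3.58.1). The 8 genes and all lists were chosen with earlier results of these data known. All 8 genes are named, with up to 4 called genes by smallest p from each pathway group, or the 2 of highest mean CPM where none was called; 2 of these are not reported here. Coordinates are from GENCODE M1 on mm9, where 20791 of 24422 symbols and all 8 genes matched, and upstream sequences from RefSeq on GRCm38.p6. Total counts were 11501053 to 21001341. Counts of replicates were not alike within sampling noise (chi-square per degree of freedom, 55.9 to 131.6), so each library counted as 1 sample.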

Additional observations from a re-analysis of the deposited data

How the results depend on the processing

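Each of the 8 genes kept its direction in all 16 alternatives. Scaling by DESeq2 size factors, upper quartile or library size, other filters, limma-voom and the newer quasi-likelihood version gave 4 to 6 called enzymes against 5. Over all genes these fits called from 2030 (limma-voom) to 3647 (library size) against 2612. Of all genes, from 662 (library size) to 1145 (DESeq2 size factors) were called lower, against 1008. DESeq2's Wald test called 8 of them and 39 other pathway genes against 22, and 4882 of all genes against 2612. The fits that left out 1 library called from 0 to 8 enzymes and from 0 to 44 pathway genes, with medians of the enzymes from -2.27 to -1.39, and the number rose only without knockout 1. With the ratio of Xist to Y-linked transcripts as a covariate 0 of all 15171 genes, and so 0 enzymes and 0 pathway genes, were called. In that fit 7 enzymes and 4221 of all genes had an unadjusted p under 0.05 (edgeR). This covariate chiefly set control 2 apart, so the fit is close to the one without control 2 and is not a separate check. The median of the enzymes was -1.65 in both. A replicate block likewise gave 0 of all genes, 0 enzymes and 0 pathway genes, with 8 enzymes and 5432 of all genes at an unadjusted p under 0.05. Deviations from the group means correlated at -0.13, 0.012 and 0.21 between libraries of the same number, and 1 of 3 numbers correlated best with itself, so no pairing was taken from them. Relative to proximal tubule markers, the small differences of 4 enzymes changed sign. With the median of the markers Pcx was at -0.057 and Khk at -0.041. Without single libraries Pcx ranged from -0.069 to 0.26, Fbp1 from -0.095 to 0.14, G6pc from -0.56 to 0.091 and Khk from -0.014 to 0.34. Pck2 (2.35 to 3.37) and Glud1 (0.88 to 1.59) kept their sign. The cause of these changes was not tested. The lowest count of the 8 genes in any library was 399, and an effect of depth was not tested.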

Other observations

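Because Pck2 went against the other enzymes, 13 genes of the integrated stress response were read beside it. Pck2 is known as a target of the stress factor ATF4, and so are many genes of amino acid synthesis and transport. The list was drawn up after the values of Pck2 had been seen and is given without a test of its own. Whether ATF4 had a part in the level of Pck2 was not tested. The summed level of the 13 genes overlapped between groups, at 513 to 565 CPM in controls and 479 to 711 CPM in knockouts. Of the 13 genes 4 were called higher and 1 lower (edgeR, all libraries), where 10.6% and 6.64% of all tested genes were, and the median log2 fold change was 0.87. Atf4 itself was at 128, 123 and 124 CPM in controls and 168, 167 and 189.8 CPM in knockouts (log2 fold change 0.49, SE 0.13; edgeR, adjusted p 0.0482). Atf5, a related factor, rose from 26.7 ± 5.14 to 90.7 ± 37.2 CPM and Trib3, a pseudokinase induced by ATF4, from 1.52 ± 0.148 to 9.12 ± 5.86 CPM (SD, n = 3 each). The cystine transporter Slc7a11 rose from 0.340 ± 0.116 to 2.79 ± 2.17 CPM. Shmt2, the mitochondrial serine hydroxymethyltransferase, fell from 223 ± 44.1 to 80.5 ± 44.1 CPM. Psat1 and Phgdh of serine synthesis were not called, with log2 fold changes of -0.013 and 0.23. Among the 4 genes called higher, Atf5 and Trib3 were highest in knockout 1, Slc7a11 in knockout 2 and Atf4, like Pck2, in knockout 3.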
